A study of Mus musculus with 8 samples.

Results

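The myeloid miRNA genes Mir223 and Mir342 were followed here through M-CSF withdrawal in mouse bone marrow-derived macrophages (BMDMs). They were represented by 6 of the 3514 features listed in either deposited table, namely 4 mature arms (mmu-miR-223-5p, mmu-miR-223-3p, mmu-miR-342-5p and mmu-miR-342-3p) and the hairpins ENSMUST00000102112 (Mir223) and ENSMUST00000083502 (Mir342). All 6 were in both tables, passed the minimum count in each run, and had reads in all 8 libraries. The genes were chosen by the measured fall of their hairpins after M-CSF withdrawal, so that the hairpin values are given as a description, without a test. The question was whether the mature arms followed. The arms were not chosen by their own values, but they were read from the same libraries as the hairpins.

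BMDMs were grown from the marrow of C57BL/6J mice, 10-week-old males per the methods, in medium conditioned by L929 cells, which supplies M-CSF, the survival factor of macrophages. Control cells received no treatment, and the others were deprived of M-CSF for 36 h, an apoptotic stimulus. The Ion Proton run had 2 control and 2 M-CSF withdrawal libraries. The SOLiD run had a single control and a single M-CSF withdrawal library of total RNA, and a second such pair made from RNA of 25-40 nt cut from a gel. The labels call the Ion Proton extract small RNA, while the methods call it total RNA, and neither says whether the replicates came from separate animals, so that the p-values measure the spread between these libraries.

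A miRNA gene is transcribed as a long primary RNA, from which the nuclear enzyme Drosha cuts a hairpin. Dicer then cuts the hairpin into a duplex, 1 strand of which, from the 5′ side (5p) or the 3′ side (3p), is loaded into an Argonaute protein and guides it to target mRNAs. The bases 2 to 8 of a mature arm, the seed, decide most of this targeting. miR-223 is a hallmark of granulocytes and monocytes, where it restrains inflammatory signalling, and its gene is activated by the myeloid transcription factors PU.1 and C/EBP. miR-342 is also under the control of PU.1 in macrophages and is made from an intron of its host gene.

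The mature sequences are shown because the 5p and the 3p arm of each hairpin are separate RNAs with separate seeds, each described on its own. They come from RefSeq (GRCm38.p6) and were the same as the sequences in the Ion Proton table. Capitals mark the seed.
miR-223-5p: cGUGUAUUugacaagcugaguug
miR-223-3p: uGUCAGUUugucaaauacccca
miR-342-5p: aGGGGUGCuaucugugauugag
miR-342-3p: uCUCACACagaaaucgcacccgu

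No other of the 989 listed mature miRNAs with a sequence, of 1063 listed in all, had any of these 4 seeds, and none of the 4 sequences was contained in another listed feature of the Ion Proton table apart from its own hairpin. The hairpins are shown with both arms in capitals, since reads were counted on the hairpin and on the arms as separate features.
Mir223: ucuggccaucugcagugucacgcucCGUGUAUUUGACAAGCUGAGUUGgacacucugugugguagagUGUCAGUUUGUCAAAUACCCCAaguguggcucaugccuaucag
Mir342: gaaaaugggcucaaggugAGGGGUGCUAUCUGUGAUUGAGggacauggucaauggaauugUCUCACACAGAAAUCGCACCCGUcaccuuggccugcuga

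In the mm10 (GRCm38) coordinates of the files, the Mir223 hairpin lay at chrX:96242817-96242926 on the plus strand. It is 110 bases long, and GENCODE release M21 places it in an exon of both overlapping transcripts of F630028O10Rik, a non-coding gene on the same strand. miR-223-5p was at chrX:96242842-96242864 and miR-223-3p at chrX:96242884-96242905. The Mir342 hairpin, 99 bases long, lay at chr12:108658620-108658718 on the plus strand, inside Evl, a regulator of the actin cytoskeleton that is transcribed in the same direction. It overlapped 5 transcripts of Evl and an exon of none, so that it is intronic. miR-342-5p was at chr12:108658638-108658659 and miR-342-3p at chr12:108658680-108658702. The SOLiD table gave each arm a window 1 base wider on each side.

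Depth was 6053130 to 7760142 reads on listed features in the Ion Proton libraries, 5772453 and 12178454 in SOLiD total RNA and 8910972 and 4039837 in 25-40 nt RNA. Intervals given for single libraries are 95% Wilson intervals and cover counting error only. The macrophage label was checked with 6 blood-cell miRNAs, among them miR-223-3p, itself an arm followed here and so no independent marker. All had at least 66.9 counts per 1000000 reads on listed features (CPM) in each Ion Proton library. In the SOLiD libraries miR-142-3p was close to 0 (0.112 to 3.71 reads per 1000000, RPM) and the other 5 had at least 140 RPM. Of 17 markers of muscle, liver, brain, epithelium, pancreas, erythroid, lymphoid, endothelial and stromal cells, 8 had no read in the Ion Proton libraries, and the list summed to at most 39.9 CPM. In the SOLiD libraries the same list summed to 7773 to 12349 RPM, led by the epithelial miR-205-5p and the erythroid miR-451a. Mature miRNAs took 39.99% and 41.2% of the reads of the Ion Proton controls, and 29.5% and 29.9% after M-CSF withdrawal. They fell from 82.0% to 41.1% in SOLiD total RNA and from 87.2% to 45.0% in 25-40 nt RNA.

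The hairpins, whose fall was the ground of the choice, are described first. The Mir223 hairpin had 186 and 172 CPM in the 2 Ion Proton controls, and 30.1 and 42.1 CPM in the M-CSF withdrawal libraries. The Mir342 hairpin had 72.4 and 51.5 CPM in the controls, and 12.6 and 13.9 CPM after M-CSF withdrawal. Every withdrawal library was below every control for both hairpins, which were chosen by this fall. The share of all features whose groups did not overlap was not counted, here or in the comparisons below. The mean of the Mir223 hairpin was 4.97-fold lower after M-CSF withdrawal, from 179 ± 9.95 to 36.1 ± 8.54 CPM (SD, n = 2 each). That of the Mir342 hairpin was 4.69-fold lower, from 62.0 ± 14.8 to 13.2 ± 0.922 CPM (SD, n = 2 each). In bulk RNA of this kind, fewer cells that hold an RNA and less of it per cell cannot be told apart.

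The fitted log2 fold changes of the hairpins in the Ion Proton run were -2.26 (SE 0.19) for Mir223 and -2.18 (SE 0.22) for Mir342, the 2 lowest among the 852 features that averaged 10 CPM or more. Just outside the choice stood miR-503-5p with a log2 fold change of -1.33, the snoRNA ENSMUST00000174989 with -1.19 and miR-351-5p with -1.18. miR-503 and miR-351 come from 1 cluster of miRNA genes on the X chromosome. Hairpin features did not lean down as a class: of the 20 with that mean, Mir223 and Mir342 included, the median log2 fold change was 0.28. The median of all 852 features was 0.07.

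The SOLiD libraries of total RNA, single for each condition, went the same way for both hairpins. The Mir223 hairpin had 9.70 RPM (7.47 to 12.6) in the control and 3.04 RPM (2.204 to 4.19) after M-CSF withdrawal. The Mir342 hairpin had 6.58 RPM (4.80 to 9.04) in the control and 2.63 RPM (1.86 to 3.71) after M-CSF withdrawal. These values rest on 32 to 56 reads each. In 25-40 nt RNA the Mir223 hairpin went from 14.1 RPM (11.9 to 16.8, 126 reads) to 2.48 RPM (1.34 to 4.56, 10 reads). The Mir342 hairpin went from 27.8 RPM (24.6 to 31.5, 248 reads) to 11.1 RPM (8.33 to 14.9, 45 reads). None of these intervals of a control overlapped that of its withdrawal library. Of hairpin features with at least 10 RPM in either library, 40% of 25 in total RNA and 34.5% of 29 in 25-40 nt RNA were past 2-fold lower. The shares of all features were 14.6% and 12.5%. In total RNA the Mir223 and Mir342 hairpins were below 10 RPM, so that the shares there do not include them. Within mature miRNA reads the ratios of withdrawal to control were 0.624 for Mir223 and 0.796 for Mir342 in total RNA, and 0.339 and 0.776 in 25-40 nt RNA. The ratio of withdrawal to control in 25-40 nt RNA was 0.175 for Mir223 (exact 95% interval 0.0820 to 0.33) and 0.400 for Mir342 (0.285 to 0.552).

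**Figure D1:**
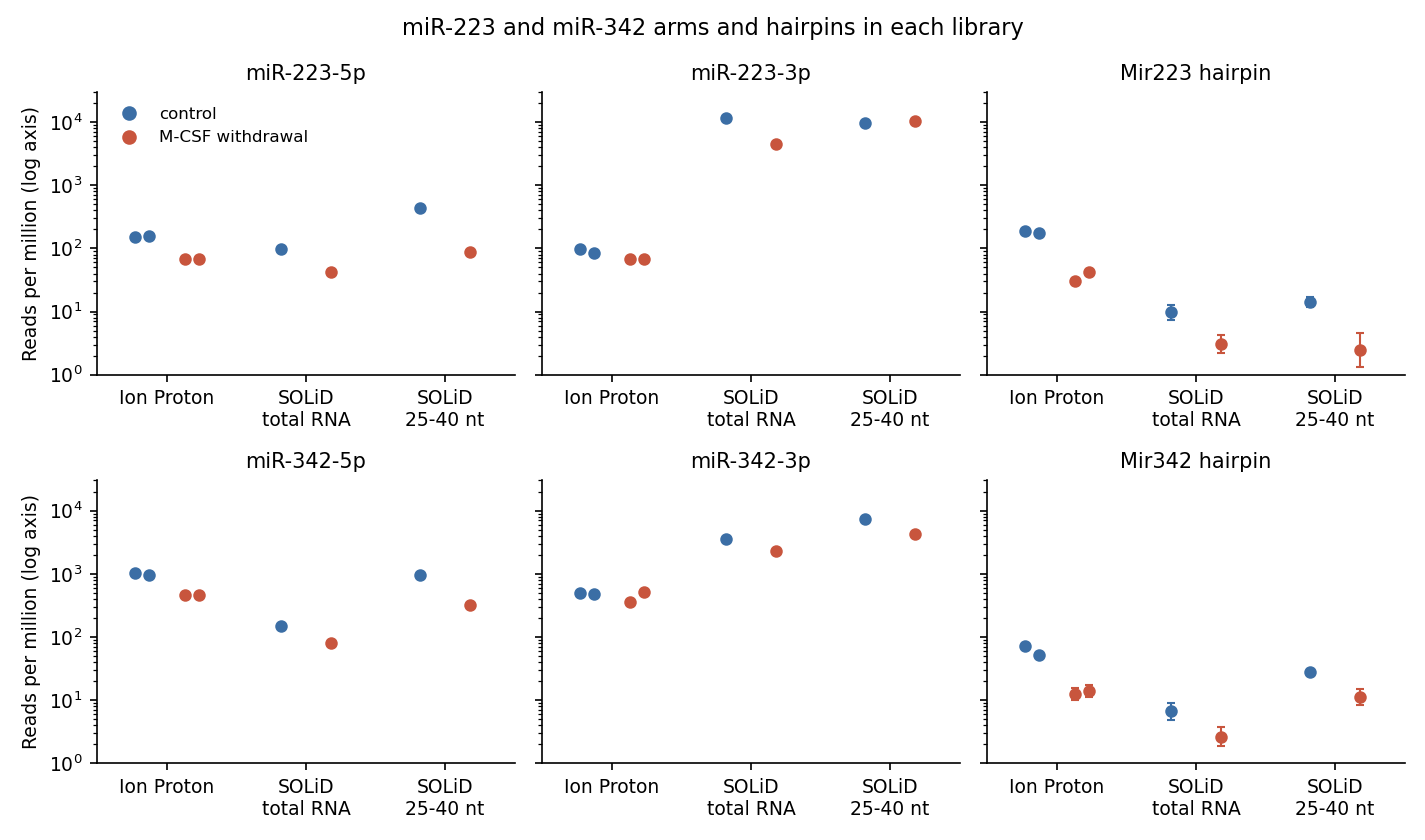
CPM or RPM (log axis) of each arm and hairpin in the 8 libraries, 1 panel per feature, with control libraries in blue and M-CSF withdrawal libraries in red. Bars are 95% Wilson intervals of the counts, often smaller than the point. In CPM or RPM, the 5p arms and the hairpins were lower after M-CSF withdrawal in all 3 pairs of groups (within mature miRNA reads, miR-342-5p in SOLiD total RNA was at 1.05 of the control), whereas miR-223-3p was not lower in 25-40 nt RNA and miR-342-3p overlapped between the Ion Proton groups.

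In the Ion Proton run the 5p arms were lower after M-CSF withdrawal, as their hairpins were. That they fell by less than the hairpins was fixed by the choice of the hairpins that fell most. miR-223-5p had 153 and 158 CPM in the Ion Proton controls, and 68.5 and 67.9 CPM after M-CSF withdrawal. miR-342-5p had 1042 and 950 CPM in the controls, and 468 and 457 CPM after M-CSF withdrawal. The groups did not overlap for either arm (share of all features not counted), and the replicates lay close together. The mean of miR-223-5p fell to 43.8% of the control, from 156 ± 3.34 to 68.2 ± 0.455 CPM (SD, n = 2 each). The mean of miR-342-5p fell to 46.4%, from 996 ± 64.8 to 462 ± 7.35 CPM (SD, n = 2 each). In edgeR's quasi-likelihood test over 2029 features, the log2 fold change was -1.14 (SE 0.08, adjusted p = 0.00272) for miR-223-5p and -1.05 (SE 0.08, adjusted p = 0.00274) for miR-342-5p.

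The 3p arms did not pass that test. miR-223-3p had 96.5 and 83.7 CPM in the Ion Proton controls, and 66.9 and 67.6 CPM after M-CSF withdrawal. Its groups did not overlap (share of all features not counted). Its log2 fold change was -0.37 (SE 0.11), with an adjusted p of 0.0784 in the edgeR test. Without control replicate 2 it was -0.46 with an adjusted p of 0.0451, in a fit in which the lone control is assumed to vary like the withdrawal libraries. miR-342-3p had 499 and 487 CPM in the controls, and 353 and 508 CPM after M-CSF withdrawal, so that its groups overlapped. Its log2 fold change was -0.14 (SE 0.20, edgeR adjusted p = 0.678), and it was 0.12 without M-CSF withdrawal replicate 1, the lower of the 2 withdrawal libraries.

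Of the 4 arms, 2 thus passed the test in the Ion Proton run, both lower, against 8.97% of all features tested (182 of 2029). The mature miRNAs leaned down as a class, which bears on how this count is read: of 186 that averaged 10 CPM or more, 73 passed lower (39.2%), 5 passed higher, and the median log2 fold change was -0.37. miR-223-3p, with the same value, stood at 93rd place in the order of fall among these 186, and miR-342-3p at 141st. miR-223-5p stood at 4th and miR-342-5p at 6th place. With the scaling set on mature miRNAs, the median of all features tested moved from 0.08 to 0.46, and both 5p arms still passed, with edgeR log2 fold changes of -0.76 (adjusted p = 0.00768) for miR-223-5p and -0.67 (adjusted p = 0.0122) for miR-342-5p. On that scale the 3p arms had positive values, 0.01 for miR-223-3p (adjusted p = 0.962) and 0.24 for miR-342-3p (adjusted p = 0.434).

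**Figure D2:**
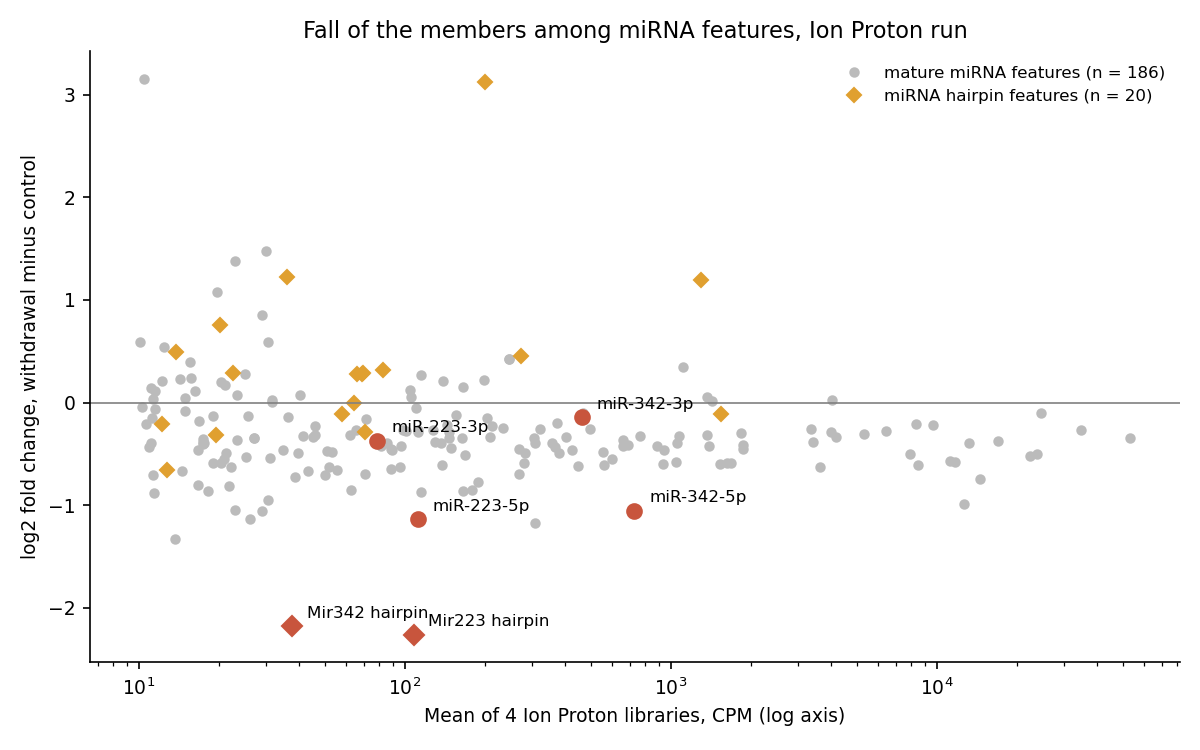
Log2 fold change (M-CSF withdrawal minus control, edgeR) against the mean CPM of the 4 Ion Proton libraries (log axis) for mature miRNA features (grey circles) and miRNA hairpin features (orange diamonds) that averaged 10 CPM or more. The 6 features described are in red: both hairpins lie below all others, the 5p arms near -1.1, and the 3p arms among the bulk of mature miRNAs.

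In CPM of mature miRNA reads alone, miR-223-5p went from 384 ± 0.0821 to 230 ± 3.64 and miR-342-5p from 2454 ± 213 to 1558 ± 39.0 (SD, n = 2 each). On the same scale miR-223-3p was 222 ± 27.1 and 226 ± 0.376, and miR-342-3p 1214 ± 47.4 and 1448 ± 357. On this scale the Ion Proton groups did not overlap for the 5p arms (share of all features not counted). The 3p arms differed by less than the larger SD of their replicates. A pass for 1 arm and not for the other does not show that they differ, which is taken up with the ratio of the arms.

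In SOLiD total RNA all 4 arms were lower after M-CSF withdrawal, the 3p arms included. miR-223-3p had 11725 RPM (11637 to 11813) in the control and 4473 RPM (4436 to 4511) after M-CSF withdrawal. miR-342-3p had 3506 RPM (3458 to 3554) and 2279 RPM (2252 to 2306). The RNA integrity number of these libraries was 8.4 in the control and 7.5 after M-CSF withdrawal (2.7 and 2.6 in 25-40 nt RNA, 8.8 and 8.4 in the Ion Proton controls, 8.9 and 8.4 in the Ion Proton withdrawal libraries), and its part in the values was not tested. The 3p arms were abundant in total RNA of the SOLiD run, and the difference exceeded the counting error by far, but there was no replicate. miR-223-5p had 97.4 RPM (89.6 to 106) and 43.0 RPM (39.5 to 46.9), and miR-342-5p had 151 RPM (142 to 162) and 80.0 RPM (75.1 to 85.2). The ratios of withdrawal to control were 0.382 for miR-223-3p, 0.442 for miR-223-5p, 0.529 for miR-342-5p and 0.650 for miR-342-3p. A value more than 2-fold lower was reached by both arms of miR-223 and neither arm of miR-342, as by 14.6% of all 1154 features with at least 10 RPM in either library and by 41.5% of 311 mature miRNAs. Within mature miRNA reads the ratios were 0.760, 0.881, 1.05 and 1.30 in the same order.

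In 25-40 nt RNA the 2 arms of miR-223 parted. miR-223-5p had 431 RPM (418 to 445) in the control and 86.4 RPM (77.8 to 95.9) after M-CSF withdrawal, a ratio of 0.2005 (exact interval 0.179 to 0.224). miR-223-3p had 9577 RPM (9513 to 9641) and 10355 RPM (10257 to 10455), a ratio of 1.08 (1.07 to 1.09). miR-342-5p had 970 RPM (950 to 991) and 325 RPM (308 to 343), and miR-342-3p 7371 RPM (7316 to 7428) and 4323 RPM (4259 to 4387). The ratio of miR-342-5p was 0.335 (exact interval 0.316 to 0.355), and that of its hairpin was 0.400 (0.285 to 0.552). The hairpin of miR-223-5p had a ratio of 0.175 (0.0820 to 0.33). For both genes the intervals of 5p arm and hairpin overlapped, so that their order lies within counting error. For both genes the 5p arm was thus lower by more than the 3p arm. Past 2-fold lower were both 5p arms and neither 3p arm, against 12.5% of all 1116 features with at least 10 RPM and 38.0% of 313 mature miRNAs. miR-223-5p stood at 8th and miR-342-5p at 37th place in the order of fall of these 313, with miR-342-3p at 168th and miR-223-3p at 241st. The arms are 22 or 23 bases long, shorter than the selected size, so that these libraries hold what passed the selection. The hairpins, 110 and 99 bases long, are longer than that size. Their reads in 25-40 nt RNA, in counts and in shares, can therefore not be taken as whole hairpins. The counts of the Ion Proton and SOLiD total RNA libraries do not show either whether hairpin reads came from whole hairpins.

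The markers of other cell types moved with the SOLiD values of miR-223-3p in direction. Of the 14 markers with at least 10 RPM in the control of total RNA, the ratio of withdrawal to control was 0.743 to 0.880 in total RNA and 1.21 to 1.91 in 25-40 nt RNA. The sum over the 15 markers listed in the SOLiD table went from 10362 to 8381 RPM in total RNA and from 7773 to 12349 RPM in 25-40 nt RNA. miR-223-3p, an abundant miRNA of blood cells, went lower and higher in the same pairs of libraries. The part of RNA from other cells in its SOLiD values was not tested. In the Ion Proton run, where the list summed to at most 39.9 CPM, its values were those given above.

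**Figure D3:**
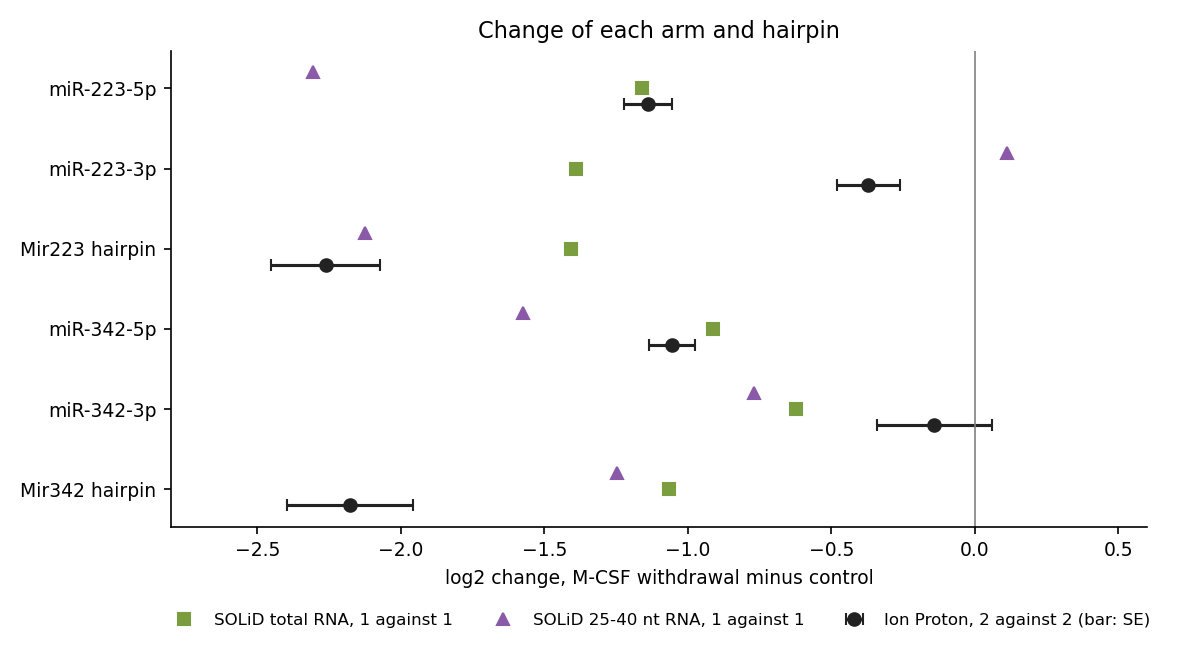
Log2 change (M-CSF withdrawal minus control) of each arm and hairpin in Ion Proton (black circles, edgeR, bars are the SE, 2 against 2 libraries), SOLiD total RNA (green squares) and SOLiD 25-40 nt RNA (purple triangles), the last 2 as the log2 ratio of RPM + 1 from 1 library per condition. The 5p arms lie at -0.91 or below in all 3 (0.08 for miR-342-5p in SOLiD total RNA when scaled to mature miRNA reads), while the 3p arms spread from -1.39 to 0.11.

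The Ion Proton libraries and the SOLiD libraries of total RNA were also fitted together in limma, with treatment and run, on log2 of RPM or CPM plus 1. This fit shares the Ion Proton libraries with the test above. The log2 fold change was -1.17 (SE 0.18, adjusted p = 0.0138) for miR-223-5p and -1.04 (SE 0.15, adjusted p = 0.0123) for miR-342-5p. It was -0.74 (SE 0.24, adjusted p = 0.0860) for miR-223-3p and -0.35 (SE 0.19, adjusted p = 0.247) for miR-342-3p. The same 2 arms passed, against 5.7% of the 1701 features tested. Both calls were lost when any 1 Ion Proton library was left out (adjusted p from 0.0735 to 0.0918) and within mature miRNA reads (adjusted p = 0.162 and 0.267, log2 fold change -0.55 and -0.41). The hairpins had log2 fold changes of -2.002 (SE 0.29) and -1.77 (SE 0.33) in this fit.

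The ratio of the 3p to the 5p arm within a library does not depend on scaling. For miR-223 it was 0.629 and 0.529 in the Ion Proton controls, and 0.975 and 0.995 after M-CSF withdrawal. For miR-342 it was 0.479 and 0.512 in the controls, and 0.754 and 1.11 after M-CSF withdrawal. The ratio was higher in every withdrawal library than in every control for both miRNAs. The log2 change was 0.77 for miR-223 and 0.89 for miR-342, each with p = 0.33 in an exact two-sided permutation test, which is the smallest p that 2 against 2 libraries can give.

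To set these changes beside those of other miRNAs, the log2 ratio was fitted with limma over the 61 miRNAs whose arms each had at least 50 reads in the Ion Proton run, a test chosen after the values were seen. The adjusted p was 0.387 for both (SE 0.21 for miR-223 and 0.28 for miR-342), so that neither passed. The median change of the 61 was 0.00, and 0 passed with a higher ratio (0% of those tested), while 4 had a higher and 3 a lower ratio at an unadjusted p under 0.05. miR-342 stood at 7th and miR-223 at 10th place in the order of rise. Over both runs, 0 of 44 miRNAs passed with a higher ratio (0%), and the log2 change was 0.44 for miR-223 (adjusted p = 0.758) and 0.69 for miR-342 (adjusted p = 0.646); 2 had a higher and 1 a lower ratio at an unadjusted p under 0.05.

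In SOLiD the ratio of the arms was of another order. It was 120 for miR-223 and 23.2 for miR-342 in the control of total RNA, and 104 and 28.5 after M-CSF withdrawal. In 25-40 nt RNA it rose from 22.2 to 120 for miR-223 and from 7.60 to 13.3 for miR-342, with 1 library per condition. The 3p arm was the higher in all SOLiD libraries for both genes, and the 5p arm in the Ion Proton controls. The mean log2 ratio of miR-223 was -0.51 in the Ion Proton run and 6.85 in SOLiD total RNA, a shift of 7.36, and that of miR-342 was -0.66 and 4.64, a shift of 5.30. Of 83 miRNAs with both arms read in both runs, 59 had the same arm higher in each, 9 changed from 5p to 3p as these did, and 15 changed the other way. The median shift was 1.12, and miR-223 and miR-342 had the 12th and the 19th highest shift. Library kit, platform and mapping differed together between the runs and cannot be told apart.

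**Figure D4:**
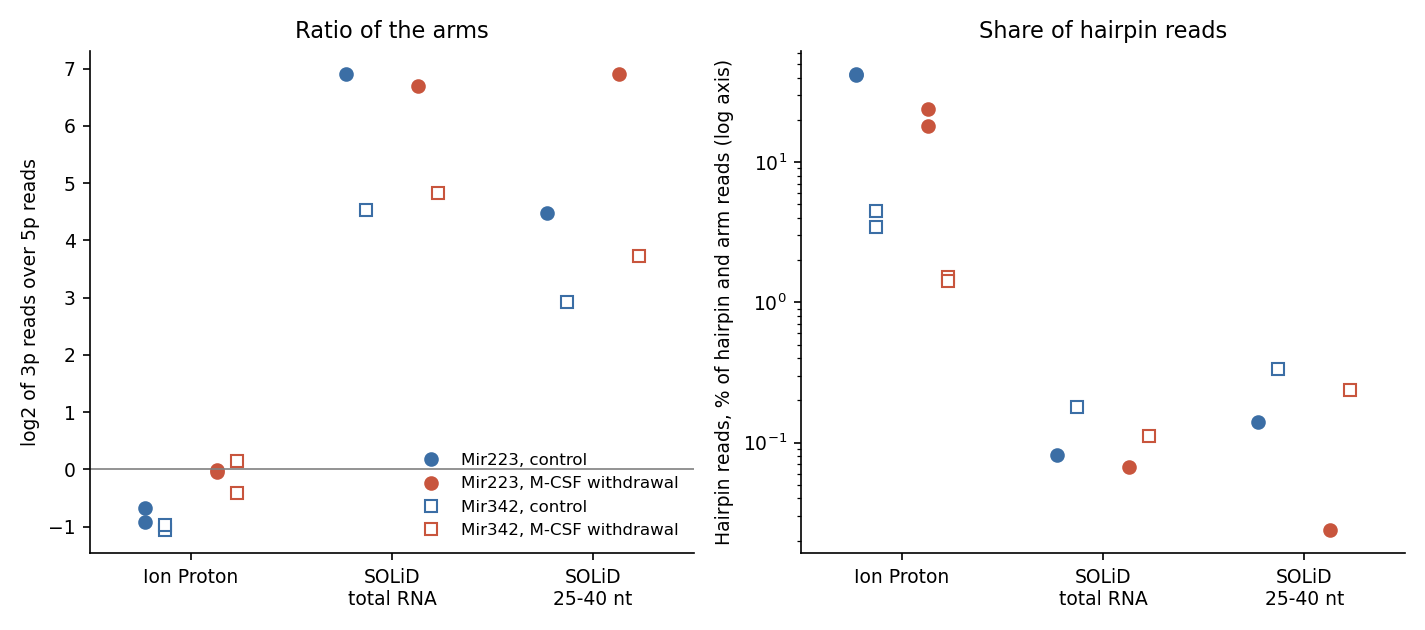
Left, log2 of 3p over 5p reads of Mir223 (filled circles) and Mir342 (open squares) in each library, with control in blue and M-CSF withdrawal in red. Right, hairpin reads as a percentage of hairpin and arm reads (log axis). In the Ion Proton run the arm ratio was higher and the hairpin share lower in both withdrawal libraries than in the controls.

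The order of abundance therefore depended on the run. Among mature miRNAs in the Ion Proton controls, miR-342-5p ranked 38th and 41st, miR-342-3p 52nd and 53rd, miR-223-5p 86th in both and miR-223-3p 106th and 109th. In the SOLiD control of total RNA, miR-223-3p ranked 11th, miR-342-3p 30th, miR-342-5p 131st and miR-223-5p 150th. After M-CSF withdrawal, miR-223-5p (68.2 ± 0.455 CPM) and miR-223-3p (67.2 ± 0.504 CPM) were level in the Ion Proton run, ranking 104th and 106th in replicate 1 and 103rd and 104th in replicate 2.

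The hairpin took a large share of Mir223 reads in the Ion Proton run. Of the reads on the hairpin and its arms, 42.7% and 41.6% were on the hairpin in the controls, and 18.2% and 23.7% after M-CSF withdrawal. For Mir342 the share was 4.49% and 3.46% in the controls, and 1.51% and 1.42% after M-CSF withdrawal. Relative to its 5p arm, the hairpin changed in that run by -1.14 on the log2 scale for Mir223 and by -1.10 for Mir342. In 25-40 nt RNA the log2 of hairpin over 5p reads was -4.93 and -5.13 for Mir223 and -5.12 and -4.87 for Mir342, in control and after M-CSF withdrawal. These small changes, down for Mir223 and up for Mir342, lie within counting error. The hairpin share there was 0.141% and 0.0237% for Mir223, and 0.33% and 0.239% for Mir342. In SOLiD total RNA only 0.0820% and 0.0672% of Mir223 reads were on the hairpin, and 0.1797% and 0.111% of Mir342 reads. These shares rest on the choice by the hairpin and have no test.

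Such a fall of a hairpin below its arms was set beside the other hairpins that could be matched. Mir223 and Mir342 were chosen because their hairpins fell most, so that their lower values than the others were fixed by the choice. Among 8 hairpins that averaged 10 CPM or more and whose arms were listed within their coordinates, the other 6 had log2 fold changes from -0.66 to 0.49. Of these 6, 2 were lower than their lowest arm and 3 higher than their highest. In the Ion Proton run the Mir223 hairpin had 0.746 and 0.713 reads per arm read in the controls, and 0.222 and 0.311 after M-CSF withdrawal. How a read that lies within an arm was assigned between arm and hairpin is not given in the sources used here, but the Mir342 hairpin had fewer reads than its arms, so that it did not take up all their reads.

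Features that moved most like each arm were sought by the distance between log2 profiles, centred within each of the 3 pairs of conditions, over 8 libraries and 737 features. Nearest to miR-223-5p were miR-146b-5p (distance 0.2005), a negative regulator of inflammatory signalling, and miR-351-5p (0.292). miR-146b-5p went from 16996 to 8241 CPM in the Ion Proton means, 1788 to 886 RPM in SOLiD total RNA and 5274 to 1112 RPM in 25-40 nt RNA. Nearest to miR-223-3p were miR-361-5p (0.326) and let-7d-3p (0.367), and let-7d-3p also had more reads after M-CSF withdrawal in 25-40 nt RNA, 572 and 619 RPM. Nearest to miR-342-3p were miR-23b-3p (0.234) and miR-29b-3p (0.319), and nearest to miR-342-5p miR-181b-5p (0.490) and miR-99b-3p (0.516). Nearest to the hairpins were miR-351-5p (1.17) and miR-146b-5p (1.34) for Mir223, and miR-125a-3p (1.08) and miR-351-5p (1.17) for Mir342. The 5p arms were closer to each other (0.566) than the 5p and 3p arms of miR-223 (1.89) or of miR-342 (1.14). The distance between the hairpins was 0.774, and both were chosen for their fall.

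Other myeloid miRNAs gave the setting. Of 20 features described in myeloid cells, 8 passed the Ion Proton test lower and 0 higher, with a median log2 fold change of -0.34. Of all 2029 features 8.97% passed lower, with a median of 0.08, and of the mature miRNAs that averaged 10 CPM or more 39.2%, with a median of -0.37. With DESeq2 12 passed lower and 0 higher (19.4% of the 1242 features with an adjusted p were lower), and with limma voom 7 and 0 (9.12% of 2029 were lower). The shares of mature miRNAs in these fits were not counted. At an unadjusted p under 0.05 in edgeR 13 were lower and 0 higher, but the share of all features at that p was not counted. The most abundant were miR-21a-5p, a miRNA induced in activated macrophages, with a log2 fold change of -0.34 (SE 0.10, adjusted p = 0.0813), miR-221-3p with -0.50 (SE 0.05, adjusted p = 0.00501) and miR-222-3p with -0.74 (SE 0.06, adjusted p = 0.00274), the last 2 known as regulators of the cell cycle inhibitor p27. The largest changes that passed were those of miR-146b-5p (-0.99, SE 0.08, adjusted p = 0.00293), miR-125a-5p (-0.85, SE 0.08, adjusted p = 0.00445) and miR-222-3p. Both 5p arms lay below all of these. Of 6 arms of the other miRNAs linked to PU.1 (miR-146a, miR-155 and miR-338), 4 could be tested. In edgeR and limma voom 0 passed and with DESeq2 1 passed lower, against the shares of all features just given for adjusted p. At an unadjusted p under 0.05 in edgeR 1 was lower, with no share of all features counted. The median log2 fold change of the 4 was 0.00. In edgeR, miR-146a-5p had -0.21 (adjusted p = 0.1804), miR-155-5p 0.22 (adjusted p = 0.221), miR-338-5p -0.90 (adjusted p = 0.0546) and miR-338-3p 0.40 (adjusted p = 0.615).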

How the data were processed

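In the Ion Proton run, reads were trimmed by the authors with cutadapt 1.2.1, short reads were dropped, the rest was mapped to mm10 with Bowtie2 2.2.4 (several places per read allowed), and raw read counts per feature were deposited. For the SOLiD run the authors mapped with LifeScope and deposited RPM (another unit than counts, written with decimal commas). All SOLiD values were whole multiples of 1 read (100% within 0.1 of a whole number), so that reads were recovered. Methods and labels differ in RNA input, read length and extraction kit.

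The main test of the Ion Proton counts was edgeR 4.0.16 (TMM, quasi-likelihood), on features whose counts summed to 5 or more. Ion Proton and SOLiD total RNA were fitted with limma 3.58.1 (treatment and run, eBayes with trend) on log2(RPM or CPM + 1). P-values were adjusted by Benjamini-Hochberg over every feature in a fit and called below 0.05. Single SOLiD libraries were not tested. DESeq2 1.42.0 and limma voom served as alternatives. The main edgeR fit, the main limma fit of both runs and the limma fit of the arm ratios were tested on simulated data, and the alternatives were not. R 4.3.3, Python 3.11.15, scipy 1.17.1 and matplotlib 3.10.9 were used.

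The members, lists and tests were chosen with earlier results of these data known. Besides the members, the text names the 2 features nearest to each member over 8 libraries (centred log2 values, at least 10 CPM and 10 RPM on average), the features next to the hairpins in the order of fall, and up to 6 myeloid miRNAs (the 3 most abundant and the 3 largest changes that passed). Positions use GENCODE M21.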

Additional observations from a re-analysis of the deposited data

Results flagged for a closer look

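miR-223-3p moved in opposite directions in groups of libraries. Its log2 change was -0.37 in the Ion Proton libraries, where each withdrawal library was below each control, and -1.39 in SOLiD total RNA, but 0.11 in 25-40 nt RNA. The SOLiD values rest on 1 library per condition, and the difference was not tested.

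The ratio of the 3p to the 5p arm of miR-223 also differed in direction. Its log2 change was 0.77 in the Ion Proton libraries and 2.43 in 25-40 nt RNA, but -0.21 in SOLiD total RNA, where 1 library stood for each condition. This difference was not tested either.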

How the results depend on the processing

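Both 5p arms stayed lower and passed the Ion Proton test under all 10 alternatives. With TMM over mature miRNAs, miR-223-3p turned to 0.0104 and miR-342-3p to 0.24 on the log2 scale, and 20 features were lower in place of 182. Leaving out 1 library each, in fits that assume the lone library to vary like the other group, miR-223-3p ranged from -0.46 to -0.34 (edgeR adjusted p = 0.0451 without control replicate 2), miR-342-3p from -0.44 to 0.12 (above 0 without M-CSF withdrawal replicate 1), the number of lower features from 100 to 248 and of higher ones from 199 to 280. DESeq2, with an adjusted p for 1242 of 2029 features, gave 241 lower and 236 higher, against 182 and 318.

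In the fit of both runs, 97 features were lower and 198 higher. With values scaled to mature miRNA reads there were 2 lower and 300 higher, and miR-223-5p had -0.55, miR-342-5p -0.41 (neither passed) and miR-342-3p 0.28. With each library centred on its median 230 were lower and 178 higher, and miR-223-3p passed at -1.05 (limma adjusted p = 0.0458). Voom gave 178 lower and 219 higher. Leaving out 1 library each, 0 to 4 were lower and 15 to 79 higher, miR-223-5p ranged from -1.18 to -1.16 and miR-342-5p from -1.06 to -0.98, and neither passed. The lower features numbered 4 without control replicate 1 and 0 without any of the other 3 libraries.

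The replicate number was also fitted as a replicate block. The labels do not say that a number marks a shared animal or day, and the deviations of same-numbered Ion Proton libraries had a correlation of -0.04, so that the numbers are not taken to pair the libraries. Under the block both 5p arms passed in the Ion Proton run (edgeR adjusted p = 0.0168 for each), and the calls were 126 lower and 233 higher. In both runs 1 was lower and 28 higher, and miR-223-5p (-1.17, limma adjusted p = 0.0680) and miR-342-5p (-1.04, limma adjusted p = 0.0622) no longer passed.

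Scaled to mature miRNA reads, the log2 changes in SOLiD total RNA were -0.40 for miR-223-3p, -0.18 for miR-223-5p, 0.37 for miR-342-3p, 0.0755 for miR-342-5p, -0.61 for the Mir223 hairpin and -0.29 for the Mir342 hairpin. In 25-40 nt RNA they were 1.07 for miR-223-3p, -1.36 for miR-223-5p, 0.19 for miR-342-3p, -0.62 for miR-342-5p, -1.40 for the Mir223 hairpin and -0.35 for the Mir342 hairpin. The cause of the other changes was not tested. With 2 libraries per group, and single SOLiD libraries, the replicate error is poorly known.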

Other observations

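In the SOLiD libraries, the epithelial miR-205-5p and the erythroid miR-451a, which macrophages are not known for, kept nearly 1 ratio of reads: 1.48 and 1.44 in total RNA and 1.48 and 1.40 in 25-40 nt RNA, each given for control and M-CSF withdrawal. Per read of miR-205-5p, miR-223-3p was at 2.45 in the control and 1.17 after M-CSF withdrawal in total RNA, and at 2.70 and 1.85 in 25-40 nt RNA. In 25-40 nt RNA miR-205-5p itself went from 3547 to 5586 RPM. The lower ratio there follows from that rise, since miR-223-3p was not lower in RPM. miR-342-3p was at 0.732 and 0.595 in total RNA, and at 2.08 and 0.774 in 25-40 nt RNA. These are single libraries with no replicate, and the part of RNA from other cells in these values was not tested.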
